A study of Mus musculus with 12 samples.

Results

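The 9 genes described here were the metallothioneins Mt1 and Mt2, the haem-degrading enzyme Hmox1, the detoxifying and redox genes Nqo1, Gclc, Gclm, Txnrd1 and Srxn1, and Nfe2l2, which encodes the transcription factor NRF2. They were picked by gene name, with earlier results of these data known, each matched 1 of the 52636 genes listed in the count table, and all 9 were among the 17993 genes with enough counts to be tested. Their transcripts were counted in RNA-seq of BALB/c mouse whole skin, in 12 libraries that form 4 groups of 3. The mice were female and, in the LL37 model, 8 weeks old by the study's methods. By the study's account, control mice were injected in the skin with a control vehicle in place of LL37. Control and LL37 mice not given rapamycin received vehicle in its place. The control + RAPA group received rapamycin, a drug that inhibits the kinase complex mTORC1. The LL37 group was injected with LL37, a peptide cut from cathelicidin, into the skin of the back over 2 days, which produces rosacea-like inflammation, and the LL37 + RAPA group received both. For BALB/c mice the methods give rapamycin at 4 mg/kg per day by injection into the peritoneum. The samples are pieces of whole skin, so that fewer cells of a type and less RNA per cell cannot be told apart, and the study describes the libraries of a group as independent biological samples, while the sample labels do not tie them to separate mice.

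Metallothioneins are small cysteine-rich proteins that bind zinc and copper and take up oxidants, and their genes respond to metals through the factor MTF1 and to glucocorticoids and inflammatory signals. NRF2 is held at low levels by KEAP1 in resting cells and, when electrophiles or oxidants block KEAP1, enters the nucleus with small MAF proteins and binds antioxidant response elements near genes for glutathione synthesis, the thioredoxin system and detoxification. BACH1 occupies the same elements and represses them, above all at Hmox1, until haem removes it. In skin, keratinocytes and infiltrating phagocytes can both express these genes.

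On the GRCm38 assembly, Mt1 lay at chr8:94179082-94180327 and Mt2 next to it at chr8:94172664-94173568, both on the forward strand. Hmox1 and Nqo1 lay on the same chromosome at chr8:75093621-75100589 and chr8:107388225-107403206, Gclc at chr9:77754535-77794485, Gclm at chr3:122245557-122270732, Txnrd1 at chr10:82833951-82897712, Srxn1 at chr2:152105516-152111376 and Nfe2l2 at chr2:75675513-75704641. These spans cover the exons and introns of each gene. An annotated antisense gene, Gm45774, shared 432 exonic bases with Mt2, and held 9 to 102 counts per library. For Gclm, Gm6061 on the same strand shared 244 exonic bases and held 0 counts in every library. The antisense gene Gm17494 shared 296 exonic bases with Gclm and held 4 to 26 counts. Reads from such partners cannot be told apart in libraries that do not mark strand. Mt2 held 275 to 2126 counts, so at most 102 reads per library can have been counted for both Mt2 and Gm45774. How the other reads on shared bases were counted was not settled, so the values of Mt2 and Gclm may include partner reads or lack some of their own. For Mt2 the shared bases were 432 of its 588 exonic bases.

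RefSeq promoter windows on GRCm38.p6 were found for 7 of the 9 genes, all but Hmox1 and Gclc, with 3 windows for Txnrd1. The 250 bases before each start were searched on both strands for the antioxidant response element core TGACNNNGC and for the metal response element core, written TGCACNC or TGCGCNC. The windows of Mt1 and Mt2 are shown because both genes moved together, that of Gclm because it held both motifs, and that of Nqo1 because it held neither. Capitals mark the motif letters.
Mt1: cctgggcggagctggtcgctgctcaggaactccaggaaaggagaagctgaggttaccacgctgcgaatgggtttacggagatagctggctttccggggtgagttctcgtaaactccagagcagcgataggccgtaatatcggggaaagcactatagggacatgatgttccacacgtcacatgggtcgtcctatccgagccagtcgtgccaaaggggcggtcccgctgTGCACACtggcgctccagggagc
Mt2: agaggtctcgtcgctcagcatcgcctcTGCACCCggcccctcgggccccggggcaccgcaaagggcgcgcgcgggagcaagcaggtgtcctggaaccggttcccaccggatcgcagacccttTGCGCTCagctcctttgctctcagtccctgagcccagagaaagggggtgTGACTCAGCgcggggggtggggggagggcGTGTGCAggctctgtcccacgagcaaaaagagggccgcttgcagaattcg
Gclm: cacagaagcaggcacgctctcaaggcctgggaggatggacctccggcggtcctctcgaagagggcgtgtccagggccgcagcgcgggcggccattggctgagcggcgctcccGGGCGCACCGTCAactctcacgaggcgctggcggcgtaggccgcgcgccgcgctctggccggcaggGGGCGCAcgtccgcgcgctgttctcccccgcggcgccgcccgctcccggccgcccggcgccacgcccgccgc
Nqo1: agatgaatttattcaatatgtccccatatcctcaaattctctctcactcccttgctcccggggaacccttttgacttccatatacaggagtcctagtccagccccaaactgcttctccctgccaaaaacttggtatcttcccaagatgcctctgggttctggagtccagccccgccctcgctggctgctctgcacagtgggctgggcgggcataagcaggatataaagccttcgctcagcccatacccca
These stretches run 5′ to 3′ on the strand of each gene and lie at chr8:94178839-94179088, chr8:94172368-94172617 and chr3:122245307-122245556 on the forward strand and at chr8:107403206-107403455 on the reverse strand. The Mt2 window held 3 metal response element cores and 1 antioxidant response element core, and the Mt1 window held 1 metal response element core. In the Gclm window an antioxidant response element core overlapped 1 of its 2 metal response element cores by 3 bases. An antioxidant response element core also stood 240 bases before the start of Nfe2l2 and in 1 window of Txnrd1, and the Srxn1 window held 1 metal response element core. Of all 32851 promoter windows, 10.2% held the antioxidant response element core, 21.4% held a metal response element core and 1.26% held 3 or more metal response element cores as the Mt2 window did. The matches describe letters in these windows, and windows set at other starts were not searched. Variants of the 2 elements that differ from these letters were not searched either, so a window without a match, as that of Srxn1 for TGACNNNGC, may still hold one. The Mt1 window ends at the outer edge of the annotated span, so bases inside the span, before any later start, were not searched. Its 1 core is thus not a count for the whole Mt1 promoter and cannot be set against the 3 of Mt2.

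Depth ranged from 15734559 to 23271784 counts per library, and the 9 genes held 118 to 19902 counts each, so none was near the floor of 3 counts, which equals at most 0.184 CPM. CPM values are gene counts scaled to the same fixed total in every library, with TMM factors for composition. One library stood apart from its group. On the first principal component of all tested genes, which held 68.3% of the variance, LL37 replicate 3 lay at 64.4 against 133 and 129 for replicates 1 and 2, between them and the LL37 + RAPA libraries at 0.53 to 29.8, so the results are also given without it. A gene was called when its Benjamini-Hochberg adjusted p, from edgeR's quasi-likelihood test over all 17993 genes, was under 0.05 and its absolute log2 fold change was above 1. The words rose and fell are used of genes past the adjusted p alone.

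LL37 injection raised 4 of the 9 genes to the level of a call, namely Hmox1, Mt2, Mt1 and Nqo1, and lowered none so far, against 8.73% of all tested genes called higher and 10.8% called lower. By the adjusted p alone 6 genes rose, with Gclm and Nfe2l2 added, and Gclc fell, where 21.0% of all genes rose and 21.6% fell. The median log2 fold change of the 9 genes was 0.73, against −0.0049 for all tested genes. The LL37 libraries lay wholly above the control libraries for 2 of the 9 genes and wholly below for 1, against 23.8% and 25.9% of all genes. Against LL37 + RAPA, the LL37 group was higher at the level of a call for 3 of the 9 genes, Hmox1, Nqo1 and Mt2, and lower for none, against 4.33% and 5.80% of all genes. By the adjusted p alone 5 were higher and 1 lower in the LL37 group, against 11.8% and 12.4%, with a median log2 difference of 0.67. For 5 genes the LL37 libraries lay wholly above the LL37 + RAPA libraries and for 1 wholly below, against 17.6% and 20.7% of all genes. The 2 comparisons share the LL37 libraries and are not independent of each other.

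**Figure D1:**
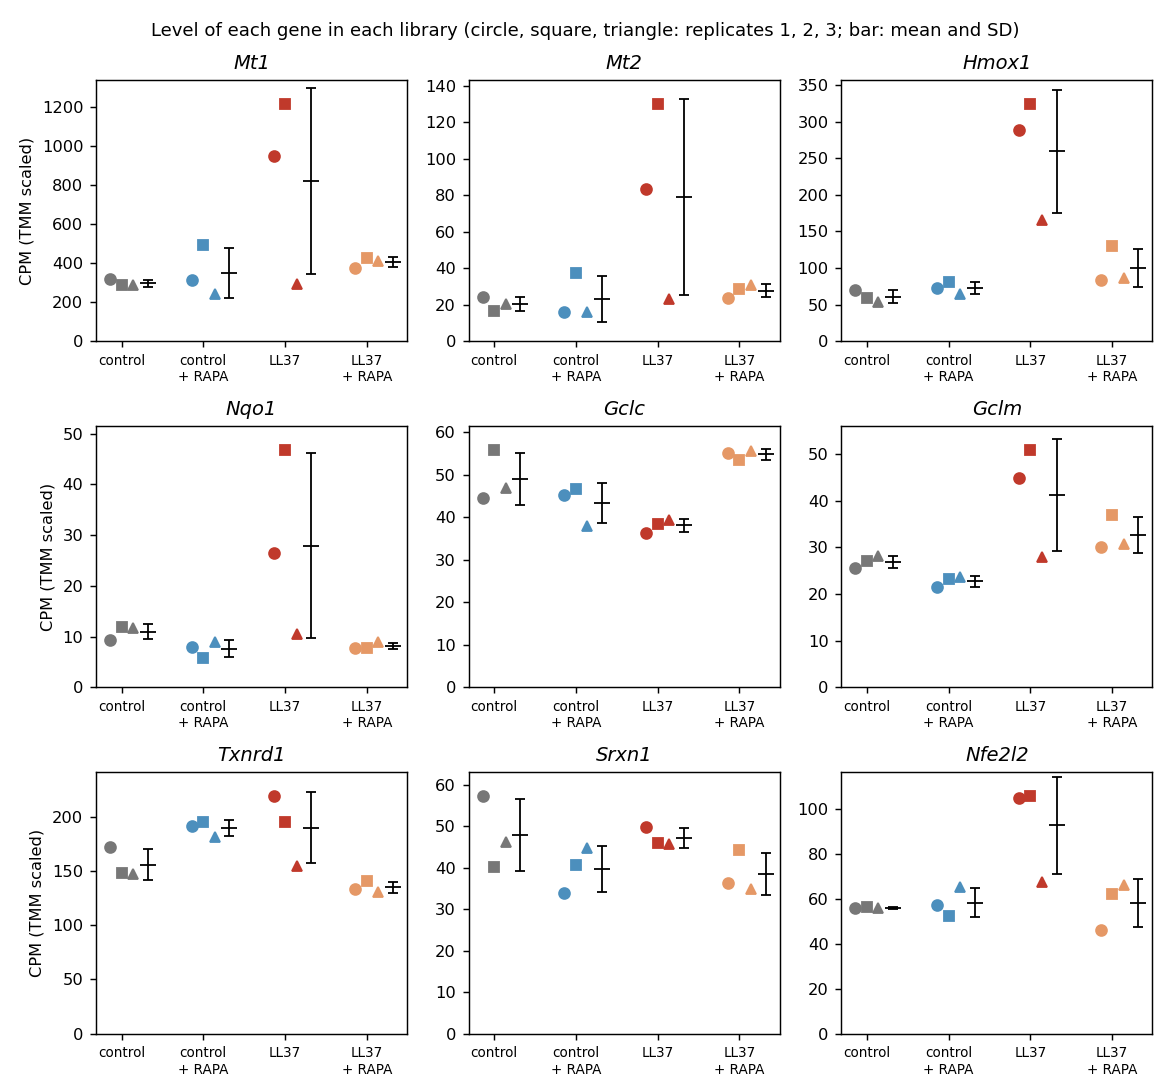
Level of each of the 9 genes in CPM (TMM scaled, linear axes from 0) in each of the 12 libraries by group, with the group mean and SD beside the points. In Mt1, Mt2, Nqo1 and Gclm the triangle for LL37 replicate 3 sits at or near the control libraries, while in Hmox1 all 3 LL37 libraries, at 165 to 325 CPM, sit above every other library.

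Mt1 and Mt2, whose proteins buffer zinc and copper, rose together in 2 of the 3 LL37 libraries. Mt1 was at 319.5, 286 and 290.0 CPM in the control libraries and at 952, 1219.6 and 293 CPM in LL37 replicates 1, 2 and 3. LL37 replicate 3 lay within the control range and the other two far above it, so the groups overlapped. The fitted difference was 2.75-fold, with a log2 fold change of 1.46 ± 0.40 (SE, n = 3 per group, edgeR adjusted p = 0.0122). Mt2 was at 24.2, 16.7 and 20.7 CPM in the control libraries and at 83.3, 130.3 and 23.1 CPM in the LL37 libraries. It showed the same pattern, with replicate 3 inside the control range. Mt2 was 3.84-fold higher on the fit, with a log2 fold change of 1.94 ± 0.51 (adjusted p = 0.00953). Without LL37 replicate 3 the log2 fold changes were 1.89 for Mt1 and 2.41 for Mt2, with edgeR adjusted p of 4.44e-05 and 0.000129. With any 1 of the 12 libraries left out both stayed past the adjusted p limit, at log2 fold changes of 1.09 to 1.89 for Mt1 and 1.41 to 2.41 for Mt2.

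With rapamycin, Mt1 was at 376, 427 and 409.9 CPM in the LL37 + RAPA libraries, above the control libraries and below LL37 replicates 1 and 2. Mt2 was at 23.7, 28.9 and 30.7 CPM there. Both genes varied far less among the LL37 + RAPA libraries than among the LL37 libraries, with SDs of 25.8 against 477 CPM for Mt1 and 3.65 against 53.7 CPM for Mt2. The LL37 group exceeded LL37 + RAPA by a log2 difference of 1.504 ± 0.50 for Mt2 (adjusted p = 0.0473). For Mt1 the difference was 1.02 ± 0.40 and missed the threshold (adjusted p = 0.0809). It passed under DESeq2 (1.03, adjusted p = 0.0276) and with no count filter (1.002, edgeR adjusted p = 0.0441). Of 20 alternatives with an adjusted p, the Mt1 difference passed the limit in 3 and the Mt2 difference in 7. The Mt2 call was close to the limit and was lost with 10 of the 12 libraries left out in turn, at adjusted p from 0.0548 to 0.197; it held without LL37 replicate 3 (log2 difference 1.94, adjusted p = 0.00103) and without control + RAPA replicate 2. Without LL37 replicate 3 the Mt1 difference was 1.42 (edgeR adjusted p = 0.000662).

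Together Mt1 and Mt2 took 0.103% and 0.140% of all counts in LL37 replicates 1 and 2, 0.0336% in replicate 3, and 0.0293% to 0.0329% in the control libraries. One control + RAPA library, replicate 2, was also high, with 492 CPM of Mt1 and 37.4 CPM of Mt2, where the other two of its group held 316 and 245 CPM of Mt1 and 15.8 CPM of Mt2 each. Mt1 gave 9.36 to 19.9 counts for every count of Mt2 over the 12 libraries, with the lowest ratio in LL37 replicate 2, the library with the most of both. This ratio is of raw counts and depends on how reads on the bases that Mt2 shares with Gm45774 were counted. Across the 12 libraries the log2 levels of Mt1 and Mt2 had a Pearson r of 0.98, a description over libraries that share groups.

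Hmox1, which opens the haem ring and releases iron, carbon monoxide and biliverdin, rose under LL37, with the largest fitted change of the 9 genes over all 12 libraries but within the standard errors of Mt2, which was ahead without LL37 replicate 3 (2.41 against 2.36). It was at 70.4, 58.4 and 54.0 CPM in the control libraries and at 288, 325 and 165 CPM in the LL37 libraries. Every LL37 library lay above every control library, and replicate 3 was the lowest of the group. The fitted rise was 4.26-fold, a log2 fold change of 2.09 ± 0.25 (n = 3 per group, edgeR adjusted p = 6.98e-05). In the LL37 + RAPA libraries Hmox1 was at 84.1, 130.1 and 86.0 CPM. These lay below all 3 LL37 libraries and above all 3 control libraries. The LL37 group exceeded LL37 + RAPA by 1.37 ± 0.24 on the log2 scale (adjusted p = 0.00338), while LL37 + RAPA differed from control by 0.72 ± 0.24 (adjusted p = 0.0692). Leaving out any 1 library kept the 2 calls, at log2 values of 1.93 to 2.36 and of 1.18 to 1.61. The difference of LL37 + RAPA from control passed the limit without LL37 replicate 2 (adjusted p = 0.0459) or LL37 replicate 3 (adjusted p = 0.00940).

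Nqo1, an enzyme that reduces quinones and a standard readout of NRF2, was the member with the lowest counts. It was at 9.33, 11.996 and 11.7 CPM in the control libraries and at 26.6, 46.8 and 10.5 CPM in the LL37 libraries. LL37 replicate 3 again lay within the control range. The fit gave a log2 fold change of 1.34 ± 0.39 (n = 3 per group, edgeR adjusted p = 0.0172). This call was lost without LL37 replicate 2 (0.78, adjusted p = 0.0787) and without control replicate 1 (1.23, adjusted p = 0.0620), and the value was 1.76 without LL37 replicate 3. Nqo1 was at 7.88, 7.82 and 8.88 CPM in the LL37 + RAPA libraries, below every LL37 and every control library. LL37 exceeded LL37 + RAPA by 1.77 ± 0.40 on the log2 scale (adjusted p = 0.00997), a call that held with any 1 library left out (adjusted p up to 0.0426). LL37 + RAPA was not separated from control by the test (−0.43 ± 0.40, adjusted p = 0.552).

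The 2 subunits of glutamate-cysteine ligase, the first enzyme of glutathione synthesis, moved in opposite directions under LL37. Gclc, the catalytic subunit, was at 44.4, 55.9 and 46.8 CPM in the control libraries and at 36.4, 38.4 and 39.5 CPM in the LL37 libraries. All LL37 libraries, replicate 3 included, lay below all control libraries. Gclc fell by 0.36 ± 0.11 on the log2 scale (n = 3 per group, edgeR adjusted p = 0.0172). Gclm, the modifier subunit that raises the activity of the catalytic one, was at 25.5, 27.1 and 28.1 CPM in the control libraries and at 44.7, 50.9 and 27.8 CPM in the LL37 libraries. It rose by a log2 fold change of 0.61 ± 0.18 (adjusted p = 0.0176), with LL37 replicate 3 inside the control range. The fall of Gclc missed the limit without LL37 replicate 1 (adjusted p = 0.0615), LL37 replicate 2 (adjusted p = 0.0593) or control replicate 2 (−0.28, adjusted p = 0.0584), and the rise of Gclm missed it without LL37 replicate 1 (adjusted p = 0.0630), LL37 replicate 2 (adjusted p = 0.0592) or control replicate 1 (adjusted p = 0.0535). Without LL37 replicate 3 the values were −0.36 for Gclc and 0.86 for Gclm.

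In the LL37 + RAPA libraries Gclc was at 55.2, 53.4 and 55.7 CPM, above all 3 LL37 libraries. LL37 was lower than LL37 + RAPA for Gclc by a log2 difference of −0.52 ± 0.11 (edgeR adjusted p = 0.00653), at −0.55 to −0.49 with any 1 library left out. Gclm was at 30.0, 37.0 and 30.8 CPM there, between LL37 replicates 1 and 2 and the control libraries. The LL37 group differed from it by 0.33 ± 0.18 (adjusted p = 0.194), and by 0.55 without LL37 replicate 3 (adjusted p = 0.00298). Per kilobase of exon, Gclm stood at 0.736 and 0.792 of the Gclc level in LL37 replicates 1 and 2, 0.422 in replicate 3, 0.291 to 0.359 in the control libraries and 0.325 to 0.414 in the LL37 + RAPA libraries.

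Txnrd1, the cytosolic reductase that keeps thioredoxin reduced, was at 172, 148 and 147 CPM in the control libraries and at 219, 195 and 154 CPM in the LL37 libraries. The groups overlapped through LL37 replicate 3, and the difference of 0.28 ± 0.12 on the log2 scale missed the threshold (n = 3 per group, edgeR adjusted p = 0.0760). It passed without LL37 replicate 3 (0.44, adjusted p = 0.00309) or control replicate 1 (0.36, adjusted p = 0.0488). In the LL37 + RAPA libraries Txnrd1 was at 134, 140.5 and 130.2 CPM, below all control and all LL37 libraries. LL37 exceeded LL37 + RAPA by 0.49 ± 0.12 (adjusted p = 0.0136), which missed the limit without LL37 replicate 1 (adjusted p = 0.0644), LL37 + RAPA replicate 1 (adjusted p = 0.0524) or LL37 + RAPA replicate 3 (adjusted p = 0.0516). Srxn1, which restores overoxidized peroxiredoxins, was at 57.3, 40.3 and 46.2 CPM in the control libraries and at 49.9, 46.0 and 45.7 CPM in the LL37 libraries. Its difference was −0.02 ± 0.15 (adjusted p = 0.918), with a sign that turned under library-size scaling and with control replicate 1, LL37 replicate 2 or LL37 replicate 3 left out. At 36.3, 44.4 and 34.9 CPM in the LL37 + RAPA libraries, Srxn1 lay below all LL37 libraries, and the difference of 0.29 ± 0.15 missed the threshold (adjusted p = 0.166).

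Nfe2l2, which encodes NRF2 itself, was at 55.9, 56.3 and 55.8 CPM in the control libraries and at 105, 106 and 67.7 CPM in the LL37 libraries. The control libraries were nearly identical, and every LL37 library lay above them. Nfe2l2 rose 1.66-fold, by a log2 fold change of 0.73 ± 0.18 (n = 3 per group, edgeR adjusted p = 0.00606), and stayed past the limit with any 1 library left out, at 0.63 to 0.94. It was at 46.1, 62.1 and 66.1 CPM in the LL37 + RAPA libraries, on both sides of the control level and below all LL37 libraries. The LL37 group exceeded LL37 + RAPA by 0.67 ± 0.18 (adjusted p = 0.0182). That difference missed the limit without LL37 replicate 1 (adjusted p = 0.0771), LL37 replicate 2 (adjusted p = 0.0623) or LL37 + RAPA replicate 1 (adjusted p = 0.0760), and was 0.86 without LL37 replicate 3. NRF2 is controlled largely through protein stability, which transcript levels do not measure.

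**Figure D2:**
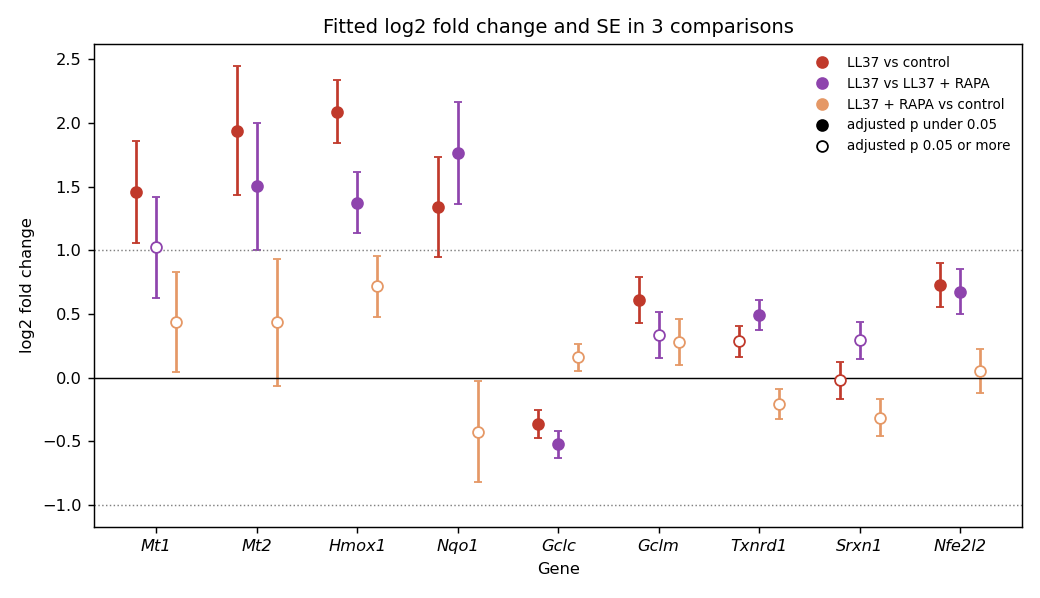
Fitted log2 fold change of each gene with its SE when LL37 is set against control, when it is set against LL37 + RAPA, and when LL37 + RAPA is set against control; filled points have an edgeR adjusted p under 0.05 and dotted lines mark the log2 limits of a call. Hmox1 at 2.09 and Mt2 at 1.94 are highest in LL37 vs control, Gclc lies below 0 in both comparisons of the LL37 group, and no point of LL37 + RAPA vs control is filled.

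Per kilobase of exon, the order of the 9 genes in the control group was led by Mt1 at 240 ± 14.7 CPM per kilobase (SD, n = 3). Mt2 at 34.9 and Hmox1 at 34.8 followed and overlapped each other, then Txnrd1 at 22.0, Srxn1 at 17.0, Nfe2l2 at 14.8, Gclc at 13.0, Nqo1 at 7.09 and Gclm at 4.28. The libraries of Srxn1, Nfe2l2 and Gclc overlapped their neighbours in this order, and the other steps did not overlap. In the LL37 group Mt1 stayed first at 659 ± 383 CPM per kilobase. Hmox1 at 148 ± 47.8 and Mt2 at 134 ± 91.4 overlapped each other, and Txnrd1, Nfe2l2 and Nqo1 overlapped one another at 26.7, 24.4 and 18.0. Lengths were all annotated exonic bases, which for Mt1, at 1246, cover its whole span. Of the 588 bases of Mt2, 432 were shared with Gm45774. The order of Mt1, Mt2 and Hmox1 depends on these lengths and on how reads on shared bases were counted.

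Without LL37, rapamycin changed none of the 9 genes at the adjusted p limit, and it changed 0 of the 17993 tested genes (0% called in either direction by either rule) by edgeR. At an unadjusted p under 0.05 there were 1556 genes, 1 of them a member, and DESeq2 called 0 of the 9. The 9 log2 differences ranged from −0.53 ± 0.40 for Nqo1 to 0.28 ± 0.12 for Txnrd1. LL37 + RAPA differed from control for 0 of the 9 genes at the adjusted p limit, where 5.03% of all genes were higher and 9.01% lower, and 2.15% and 4.35% were called with the fold limit as well. At an unadjusted p under 0.05 there were 4930 of all genes and 1 member, Hmox1. DESeq2 called 0 with the fold limit. Hmox1 passed the adjusted p limit in 7 of 20 alternatives, among them DESeq2 (0.0275), library-size scaling (0.0252), no count filter (0.0302), a replicate block (0.0361) and only the compared groups fitted (0.0323), and Mt1 passed in 1, with only the compared groups fitted (0.0158). The libraries of LL37 + RAPA lay wholly above control for 3 members, Mt1, Hmox1 and Gclm, and wholly below for 2, Nqo1 and Txnrd1, against 16.9% and 19.5% of all genes.

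Among mice given rapamycin, LL37 moved 2 of the 9 genes at the adjusted p limit, where 8.20% of all genes rose and 10.4% fell, and 0 with the fold limit, where the shares were 4.07% and 4.32%. Gclc was higher in LL37 + RAPA than in control + RAPA by 0.34 ± 0.11 on the log2 scale (edgeR adjusted p = 0.0455), from 45.3, 46.6 and 37.9 CPM in the control + RAPA libraries. Txnrd1 was lower by a log2 difference of −0.49 ± 0.12 (adjusted p = 0.0144), from 192, 195 and 181 CPM. The libraries of these groups did not overlap for 3 members higher in LL37 + RAPA, Gclc, Gclm and Hmox1, and for 1 lower, Txnrd1. The share of all genes without overlap is not given here for this comparison, so this describes the members only. Without rapamycin the LL37 effect on Gclc and on Txnrd1 had the other sign, at −0.36 for Gclc and 0.28 for Txnrd1. The Gclc difference missed the adjusted p limit with 7 of the 12 libraries left out in turn, all of the 2 groups and LL37 replicate 1, at adjusted p of 0.0525 to 0.126, and that of Txnrd1 without control + RAPA replicate 1 (adjusted p = 0.0544) or LL37 + RAPA replicate 3 (adjusted p = 0.0563). For Gclm the difference was 0.52 ± 0.18 (adjusted p = 0.0681), and it passed without LL37 replicate 2 (adjusted p = 0.0332) or LL37 replicate 3 (adjusted p = 0.00248).

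The effect of LL37 without rapamycin was then set against its effect with rapamycin in an interaction test. Hmox1 had the larger effect without rapamycin by 1.63 ± 0.34 on the log2 scale (edgeR adjusted p = 0.0316), and was the only member called, against 0.650% of all genes called with a positive and 1.73% with a negative interaction. Gclc (−0.70 ± 0.15, adjusted p = 0.0351) and Txnrd1 (0.77 ± 0.17, adjusted p = 0.0366) passed the adjusted p alone, where the shares were 1.13% and 2.15%. For Mt1 (1.26, adjusted p = 0.210), Mt2 (1.67, adjusted p = 0.188), Nqo1 (1.24, adjusted p = 0.219) and Nfe2l2 (0.73, adjusted p = 0.115) the difference between the effects missed the threshold. These tests rest on each library. The Hmox1 interaction passed with 2 of the 12 libraries left out in turn, namely LL37 replicate 3 and LL37 + RAPA replicate 2, and missed with the other 10, at adjusted p of up to 0.0931. Its log2 value ranged from 1.45 to 1.87 over the 12 fits. The Gclc interaction passed only without control replicate 2 or LL37 replicate 3 (adjusted p up to 0.0951 otherwise), and that of Txnrd1 only without LL37 replicate 3 (up to 0.1003). Without LL37 replicate 3 the interactions of Mt1 (1.66, adjusted p = 0.00381), Mt2 (2.11, adjusted p = 0.00867), Nqo1 (1.63, adjusted p = 0.00616) and Nfe2l2 (0.92, adjusted p = 0.00704) passed as well. Leaving out that library also took the share of all genes past the adjusted p limit to 17.1% in the interaction, 47.8% in LL37 vs control and 34.8% against LL37 + RAPA, in both directions together.

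**Figure D3:**
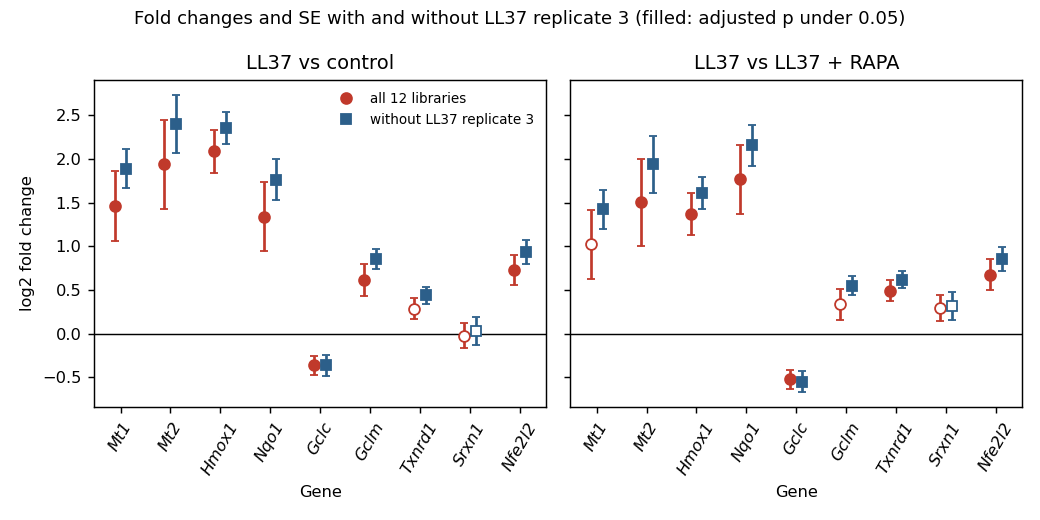
Fitted log2 fold change and SE of the 9 genes from all 12 libraries (red circles) and without LL37 replicate 3 (blue squares), for LL37 set against control (left) and against LL37 + RAPA (right); filled symbols have an edgeR adjusted p under 0.05. Without that library Mt1 vs LL37 + RAPA moves from 1.02 to 1.42 and becomes filled, as do Gclm in the same panel and Txnrd1 against control, while Srxn1 is unfilled either way and Gclc hardly moves.

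The cell type markers of these skin pieces moved with the groups. Markers of neutrophils took 0.00211% to 0.00934% of counts in the control libraries and 0.0305% to 0.274% in the LL37 libraries, with LL37 replicate 3 the lowest, and 7 of 7 tested markers were called higher. Their share in LL37 + RAPA was 0.0163% to 0.0528%. The neutrophil surface gene Ly6g was at or under the floor in every control library. Macrophage markers took 0.0719% to 0.123% in control, 0.211% to 0.243% in LL37 and 0.181% to 0.292% in LL37 + RAPA, with 4 of 9 called higher in LL37. Activated keratinocyte markers, keratins and genes of stressed epidermis, took 0.129% to 0.273% in control, 0.732% to 1.15% in LL37 and 0.212% to 0.341% in LL37 + RAPA, with 6 of 6 called higher. Skeletal muscle markers, from the thin muscle sheet under mouse skin, took 4.11% to 5.87% in control, 0.0156% to 0.114% in LL37 and 0.372% to 0.806% in LL37 + RAPA, and 19 of 19 fell. Of the adipocyte markers 6 of 7 were called lower. Against LL37 + RAPA the exact p was 0.3 for neutrophils and 1 for macrophages, and 0.1 for activated and basal keratinocytes, muscle, adipocytes and endothelium. There 19 of 19 muscle and 6 of 7 adipocyte markers were called lower in LL37, and 4 of 6 activated keratinocyte markers higher. Of the other lists, basal keratinocytes had 2 called higher and 1 lower of 6, endothelium 0 and 1 of 5, and differentiated keratinocytes, fibroblasts and erythroid cells 0 of 7, 6 and 5. Shares differed between LL37 and control at an exact permutation p of 0.1, two-sided and the smallest that 3 against 3 allows, for neutrophils, macrophages, activated keratinocytes and muscle alike. The part of these cell types in the levels of the 9 genes was not tested. With the muscle markers taken out of the scaling, the median log2 value of all genes in LL37 vs control was −0.0128, against −0.0049. The calls of the 9 genes there again numbered 4. That setting changes the scaling alone and cannot show what the loss of muscle RNA meant for the 9 genes.

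**Figure D4:**
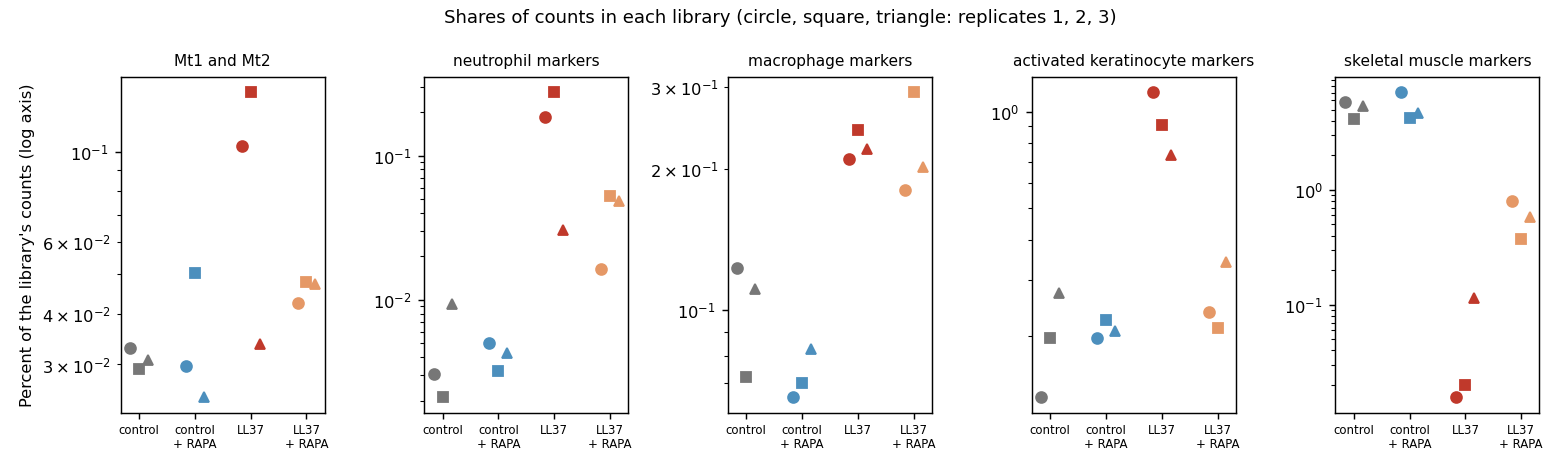
Percent of all counts (log axes) held by Mt1 and Mt2 and by the markers of neutrophils, macrophages, activated keratinocytes and skeletal muscle in each library, by group. LL37 replicate 3, the triangle in the LL37 column, is the lowest of its group for Mt1 and Mt2, neutrophils and activated keratinocytes and the highest for muscle, but lies between the other two for macrophages.

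Outside the 9 genes, the other known NRF2 targets moved in both directions under LL37. Of 26 tested, 3 were called higher and 5 lower, where 8.73% and 10.8% of all tested genes were. Their median log2 fold change was −0.07, against −0.0049 for all tested genes and 0.73 for the 9 genes, which were chosen with earlier results known. Slc7a11, the cystine importer that feeds glutathione synthesis, went from 2.55 ± 2.54 CPM in control to 40.1 ± 32.3 CPM in LL37 (SD, n = 3), a log2 fold change of 3.97 ± 0.89 (edgeR adjusted p = 0.00402), with its lowest LL37 library at 4.76 CPM inside the control range of up to 5.48 CPM. The aldo-keto reductase Akr1b8 (1.77, adjusted p = 0.000129) and the epithelial glutathione peroxidase Gpx2 (1.31, adjusted p = 0.0185) also rose. The glutathione transferases Gsta3 (−2.68), Gstm1 (−1.46) and Gsta4 (−1.19), the aldehyde oxidase Aox1 (−3.06) and the autophagy receptor Sqstm1 (−1.20) fell, at edgeR adjusted p of 0.000193 or lower. In LL37 against LL37 + RAPA 3 of the 26 were called higher and 3 lower, against 4.33% and 5.80% of all genes. The same shares of all genes in the 2 comparisons apply to the counts of the lists below. Akr1b8 (1.03, adjusted p = 0.00803), Gpx2 (1.63, adjusted p = 0.0136) and Slc7a11 (2.65, adjusted p = 0.0361) were higher in LL37, and Gsta3 (−1.99, adjusted p = 0.00129) and Aox1 (−2.06, adjusted p = 0.00283) led the genes that were lower. These 6 calls became 2 without LL37 replicate 2 and 3 without LL37 + RAPA replicate 1. Summed over the list, the 26 genes took 0.242% to 0.252% of counts in control and 0.228% to 0.248% in LL37.

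Among 8 regulators of NRF2, 0 were called in either comparison of the LL37 group. Bach1, the haem-sensing repressor of Hmox1, rose from 73.2 ± 2.01 to 139 ± 21.1 CPM (log2 fold change 0.93 ± 0.13, edgeR adjusted p = 0.000192), and was called without LL37 replicate 3 and under library-size scaling, where the count of regulators became 1. Keap1, which marks NRF2 for degradation, was at 93.6 ± 5.53 CPM in control and 82.5 ± 5.48 CPM in LL37 (−0.18 ± 0.08, adjusted p = 0.0907). In LL37 + RAPA it was at 65.8 ± 1.98 CPM, below LL37 by 0.33 on the log2 scale (adjusted p = 0.0151).

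Of the remaining metallothionein and zinc genes, 3 of 10 were called higher and 2 lower under LL37. The other 2 metallothioneins fell. Mt4, which is expressed in stratified epithelium, went from 67.5 ± 9.51 to 10.8 ± 16.5 CPM (log2 fold change −2.62 ± 0.88, edgeR adjusted p = 0.0320), with LL37 libraries from 0.490 to 29.8 CPM, and Mt3, best known from brain, from 9.68 ± 8.64 to 2.17 ± 1.42 CPM (−2.13 ± 0.68, adjusted p = 0.0258). The zinc importers Slc39a14 (2.53, adjusted p = 0.00120), Slc39a1 (1.11, adjusted p = 0.000195) and Slc39a10 (1.05, adjusted p = 0.00238) rose. Mtf1, the metal-sensing activator of Mt1 and Mt2, was at 24.9 ± 2.95 CPM in control and 25.9 ± 3.39 CPM in LL37 (0.05 ± 0.12, adjusted p = 0.742). Against LL37 + RAPA 0 of the 10 were called, while 4 were called without LL37 replicate 3 and 1 without control replicate 2 or control replicate 3. The count against control was 3 without control replicate 3 or LL37 replicate 1 and 2 without LL37 replicate 2, with none lower in each case.

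In haem and iron handling, around Hmox1, 3 of 16 genes were called higher under LL37 and 1 lower. Hpx, the haem-binding haemopexin, went from 0.805 ± 0.112 to 5.81 ± 4.55 CPM (2.83, edgeR adjusted p = 0.00879), with its lowest LL37 library at 0.565 CPM. The haemoglobin-binding haptoglobin Hp (1.27, adjusted p = 0.0436) and the ferritin light chain Ftl1 (1.02, adjusted p = 0.000874) rose, and ferrochelatase Fech, the last enzyme of haem synthesis, fell (−1.25, adjusted p = 9.12e-06). Hp was higher still in LL37 + RAPA, at 1621 ± 306 CPM against 449 ± 163 CPM in LL37 (−1.85 for LL37 against LL37 + RAPA, adjusted p = 0.0163), while Hpx was 2.31 higher in LL37 on the log2 scale (adjusted p = 0.0329). The count of 4 against control became 2 without control replicate 2, control replicate 3 or LL37 replicate 2. The 2 calls against LL37 + RAPA became 1 without LL37 replicate 1, LL37 replicate 2, LL37 + RAPA replicate 1 or LL37 + RAPA replicate 2 and 0 without LL37 + RAPA replicate 3.

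The glutathione enzymes had 1 of 9 tested genes called higher and 2 lower under LL37. The glutaredoxin Glrx rose (1.26, edgeR adjusted p = 0.000869), and the plasma peroxidase Gpx3 (−2.22, adjusted p = 0.000194) and the glutathione-degrading Chac1 (−2.32, adjusted p = 1.30e-05) fell. Against LL37 + RAPA, Glrx was called higher (1.304, adjusted p = 0.00293) and Gpx3 lower (−1.36, adjusted p = 0.00844). Among 12 superoxide and peroxide enzymes, catalase, Cat, was the only call against control, at −1.01, past the adjusted p limit and on the edge of the fold limit. Sod1, which was not called, went from 146 ± 3.75 CPM in control to 73.3 ± 5.50 CPM in LL37 (SD, n = 3). The count of calls ranged from 0 without control replicate 1 to 2 without control replicate 2, LL37 replicate 3 or any 1 control + RAPA library. A count of 2 includes a gene other than Cat. The mitochondrial Sod2 (1.34, adjusted p = 0.0167) was higher and the extracellular Sod3 (−1.08, adjusted p = 0.0114) lower in LL37 than in LL37 + RAPA. Those 2 calls became 1 without LL37 replicate 1 or any 1 LL37 + RAPA library and 0 without LL37 replicate 2.

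The phagocyte oxidase, which makes superoxide, had all 6 tested genes called higher under LL37, with a median log2 fold change of 1.70. Ncf4 (2.21, edgeR adjusted p = 0.000284) and Cyba (1.45, adjusted p = 0.000301) had the smallest p. Against LL37 + RAPA only Cybb was called (1.15, adjusted p = 0.0312). That count was 0 without LL37 replicate 1, LL37 replicate 2, LL37 + RAPA replicate 1 or LL37 + RAPA replicate 3, 4 without LL37 replicate 3 and 2 without LL37 + RAPA replicate 2. Glucocorticoid response genes, were listed because glucocorticoids can induce metallothioneins. Of 9, 2 were called lower under LL37, Klf9 (−1.79, adjusted p = 1.76e-05) and Tsc22d3 (−1.59, adjusted p = 0.000768), and 0 higher. Against LL37 + RAPA 4 were called lower, led by Fkbp5 (−1.06, adjusted p = 0.00248) and Klf9 (−1.02, adjusted p = 0.00276), and 2 without LL37 replicate 1 or LL37 + RAPA replicate 2 and 1 without LL37 + RAPA replicate 1.

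**Figure D5:**
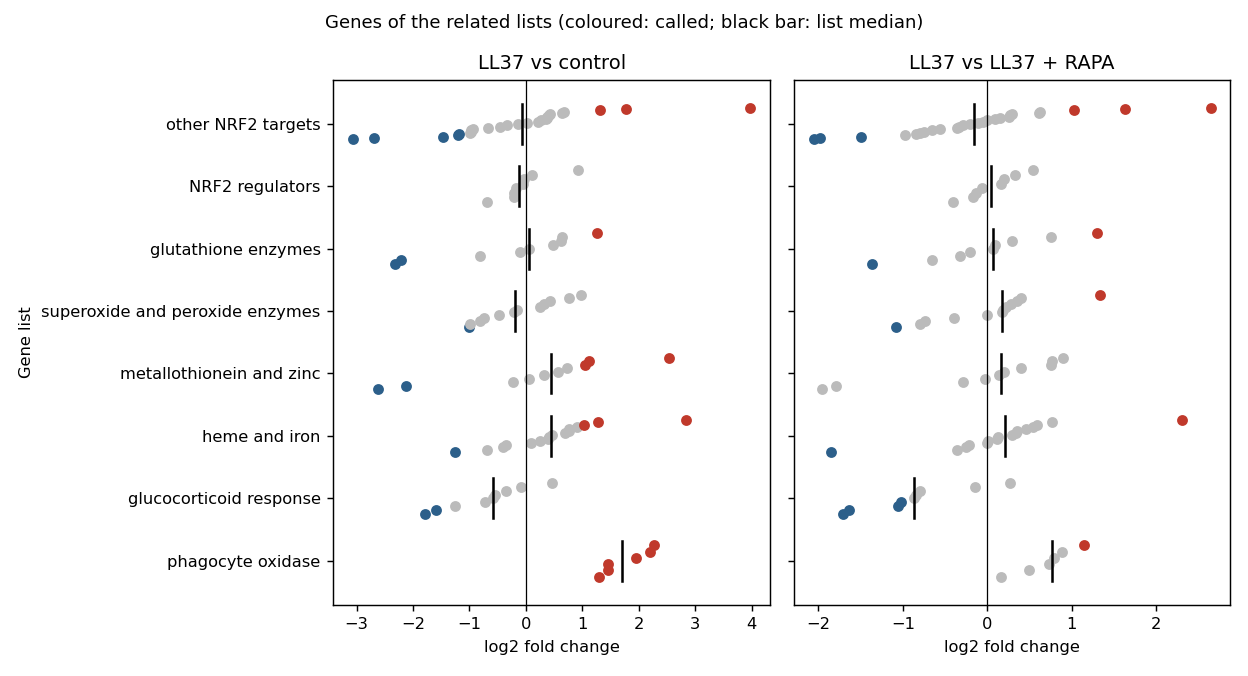
Log2 fold change of every tested gene of the 8 related lists for LL37 set against control (left) and against LL37 + RAPA (right); each point is a gene, red and blue mark genes called higher and lower, grey marks genes not called, and the black bar is the list median. The phagocyte oxidase genes all lie above 1 against control, and the other NRF2 targets spread from −3.06 for Aox1 to 3.97 for Slc7a11 around a median near 0.

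Over the 12 libraries, Gclc ran against most of the other members, with Pearson r of −0.79 with Txnrd1 and −0.67 with Nfe2l2 on log2 levels. Nfe2l2 followed Nqo1 with r of 0.88, Hmox1 with 0.86 and Mt2 with 0.80, and Srxn1 followed no member above 0.38. Among 12417 other genes with a mean of at least 5 CPM, those most like Mt1 were Sema6d (0.962), the peroxiredoxin Prdx6 (0.957) and Sf3b1 (0.955). Those most like Mt2 were Itga2b (0.970), Adgrg3 (0.960) and Crispld2 (0.960), and those most like Hmox1 were Ppp4r1 (0.982), Api5 (0.979) and Itgav (0.978). All these values describe 12 libraries that share group differences and the spread of the LL37 group.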

How the data were processed

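Whole skin of BALB/c mice was sequenced as paired-end RNA libraries made with a kit that does not mark strand. The deposited file holds raw counts per gene for the 12 libraries, which the authors counted from alignments to the mouse genome. The submitters' processing notes name HISAT2 2.0.5, StringTie 1.3.3b, featureCounts 1.5.0-p3, DESeq2 1.16.1 and the mm10 build, while the methods of the study name HTSeq as the counter, so which counter made the deposited counts was not settled. Symbols and exon lengths came from GENCODE M21, which matched 52403 of 52636 gene IDs, and promoter sequences came from RefSeq on GRCm38.p6.

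Counts were scaled by TMM and filtered with filterByExpr, which left 17993 genes. All 12 libraries were fitted in 1 model with edgeR 4.0.16 (R 4.3.3) by glmQLFit and glmQLFTest, with group means and no block. Benjamini-Hochberg adjustment ran over all tested genes, and a gene was called at an adjusted p under 0.05 when its log2 fold change also exceeded 1 in size. The interaction compared the LL37 effect without RAPA with that in mice given RAPA. Groups were taken from the sample labels. Shares of counts on marker lists were compared by two-sided exact permutation tests. The script was tested on simulated counts.

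The 9 genes, the related lists and the markers were chosen with earlier results of these data known. All 9 genes were named. From each related list up to 4 called genes in each direction with the smallest p against control, and up to 2 against LL37 + RAPA, were named, and Mt3, Mt4, Mtf1, Keap1 and Bach1 in any case. For Mt1, Mt2 and Hmox1 the 3 genes of highest Pearson r with a mean of at least 5 CPM were named. Sqstm1, Ly6g, Gpx4 and Sod1 were named after their values were seen, and 1 gene that the rule would name is not reported here. Alternatives were DESeq2 size factors, library size only, TMM without muscle markers, 2 other count filters, a replicate block, only the groups compared, DESeq2 1.42.0, the unadjusted p, no fold limit, and each library left out. The total counts give a floor of 3 counts, at 0.123 to 0.184 CPM.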

Additional observations from a re-analysis of the deposited data

Results flagged for a closer look

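Among the 9 genes and the related lists, 10 genes passed the interaction test at the adjusted p limit. The 8 lists held 26, 8, 9, 12, 10, 16, 9 and 6 tested genes. It sets the effect of LL37 without RAPA against its effect in mice given RAPA, in edgeR's quasi-likelihood fit (log2 difference, adjusted over all 17993 genes). Of all tested genes, 1.13% passed with a positive and 2.15% with a negative sign. The members that passed were Hmox1 at 1.63 ± 0.34 (adjusted p = 0.0316), Txnrd1 at 0.77 ± 0.17 (adjusted p = 0.0366) and Gclc at −0.70 ± 0.15 (adjusted p = 0.0351). With a single library left out, each of these members missed the limit in most fits. Such fits are not given here for the genes of the lists. Among the other NRF2 targets the glutathione transferases Gsta3 (−1.87, adjusted p = 0.0242) and Gsta4 (−1.32, adjusted p = 0.0193) and the aldehyde oxidase Aox1 (−2.06, adjusted p = 0.0392) had the negative sign, as did the antioxidant enzymes Sod1 (−0.76, adjusted p = 0.0198), Cat (−0.74, adjusted p = 0.0419) and Gpx4 (−0.56, adjusted p = 0.0371). The repressor Bach1 had the positive sign (0.76, adjusted p = 0.0433). Groups of 3 libraries were too small for a test of single outlying libraries.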

How the results depend on the processing

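Of the 9 genes, the number called was 4 in LL37 vs control, 3 in LL37 vs LL37 + RAPA, 0 in LL37 + RAPA vs control + RAPA and 1 in the interaction. Without the fold limit these became 7, 6, 2 and 3. With only the compared groups fitted the first 2 became 2 and 1, and with the unadjusted p the interaction count became 4. With each library left out in turn the interaction count ranged from 0 to 4, with 4 without LL37 replicate 3. The log2 fold change of Srxn1 in LL37 vs control, −0.02, was 0.0648 under library-size scaling and −0.15 to 0.12 with a library left out, and that of Nfe2l2 in LL37 + RAPA vs control, 0.05, was −0.05 to 0.19. Over 770 alternatives to the 37 member values printed singly, 653 kept direction and side of the limit, 78 kept direction but missed the limit, 34 came to pass it and 5 turned sign; the cause was not tested. Library-size scaling put the median log2 value of all genes at 0.13 in LL37 + RAPA vs control, 0.18 in LL37 + RAPA vs control + RAPA and −0.11 in the interaction, and in the first 2 took the share of calls that were higher from 33.0% to 44.6% and from 48.5% to 62.7%.

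Same-numbered libraries did not deviate together over all genes (r of −0.188 to 0.263 over 18 pairs). Such values cannot exclude a pairing or a difference shared by same-numbered libraries in some genes. Gm45774 held 32, 14, 9 and 38 counts in replicate 3 of control, control + RAPA, LL37 and LL37 + RAPA, against 69 to 102 in replicates 1 and 2. A shared difference of the replicate 3 libraries was not tested. With the replicate number as a block, Mt2 in LL37 vs LL37 + RAPA was 1.32 (edgeR adjusted p = 0.0776) and missed the limit, as did Gclc in LL37 + RAPA vs control + RAPA (0.0564) and in the interaction (0.0573), while Hmox1 in LL37 + RAPA vs control passed it (0.0361). No other member value printed singly changed side of the limit, and no count of the 9 genes called moved by over 1.5 times.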
